A study of Mus musculus with 14 samples.

Results

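Among the autosomal regions marked by trimethylated lysine 27 of histone H3 (H3K27me3) in mouse haematopoietic stem cells, 1319 of 9067 were called in both Phf19 KO libraries and in control replicate 1, and were missed by control replicate 2 alone. They were chosen by merging the 4 deposited region lists into a union and keeping each union region that overlapped a region of KO replicate 1, KO replicate 2 and control replicate 1 by at least 1 bp and no region of control replicate 2. Chromosomes X, Y and M were left out. Presence in the lists chose these regions, and their widths and scores come from the same calls, so their values are given as descriptions with no test. An exact permutation test of 2 KO libraries against 1 control library could in any case not give a p below 0.333.

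The series holds 14 samples, of which 4 are the H3K27me3 chromatin immunoprecipitation libraries (ChIP-seq) used here. The KO group is bone marrow of mice labelled PHF19 KO (2 libraries), and the control group is bone marrow of mice labelled as the floxed condition, FF (2 libraries). All 4 libraries were made from lineage-depleted cells labelled as CD150+ haematopoietic stem cells, with a rabbit polyclonal H3K27me3 antibody and a kit for low cell input. Neither the labels nor the file headers state the Cre driver, the age or sex of the mice, or whether libraries came from separate or pooled animals, so a spread between libraries may be technical. The track line of control replicate 1 calls the library WT where the label says floxed. The track lines also name both replicate 1 lists in one style, with a number per library, and both replicate 2 lists in another. The lists hold no marker gene, so the labelled cell type was not checked.

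H3K27me3 is deposited by Polycomb repressive complex 2, in which Ezh2 is the methyltransferase and Eed and Suz12 are core subunits. The mark covers promoters of many silent developmental genes and often spreads over several kilobases around CpG-rich starts of transcription. Phf19 is a Polycomb-like partner of the complex, with a Tudor domain that binds methylated histone H3, and helps bring the complex to chromatin. A region list records where a peak caller found enough enriched reads, so it depends on read depth and on the spread of the signal as well as on the mark.

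These 1319 loci were 14.5% of the autosomal union, the class with the most loci among those shared by more than 1 list. They held 1326 of the 5922 autosomal regions of KO replicate 1 (22.4%), 1344 of the 4414 of KO replicate 2 (30.4%) and 1321 of the 4038 of control replicate 1 (32.7%). By covered length they took 4.10 Mb or 33.9% of KO replicate 1, 2.25 Mb or 34.1% of KO replicate 2, and 4.04 Mb or 41.7% of control replicate 1. Control replicate 2 had 891 autosomal regions over 1.47 Mb, the shortest of the 4 H3K27me3 lists. Read depths are unknown here, so the lists could not be set on a common depth.

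Loci missed by a single list were far fewer for the other libraries. KO replicate 1 alone missed 43, KO replicate 2 alone missed 69 and control replicate 1 alone missed 72 loci that the other 3 lists held. Put as shares, KO replicate 1 held 91.9% of the 528 loci common to the other 3 lists, KO replicate 2 held 87.5% of 554, control replicate 1 held 87.1% of 557, and control replicate 2 held 26.9% of 1804. A locus missed only by another list had to be held by control replicate 2, which had 891 autosomal regions. With that length it could itself hold at most 891 of the 1804. These contrasts were thus in part set by list length. When every list was reduced to its 891 regions of highest score, the loci missed by a single list numbered 50 for KO replicate 1, 68 for KO replicate 2, 31 for control replicate 1 and 76 for control replicate 2. At equal length, control replicate 2 thus missed about as many shared loci as KO replicate 2 did.

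**Figure D1:**
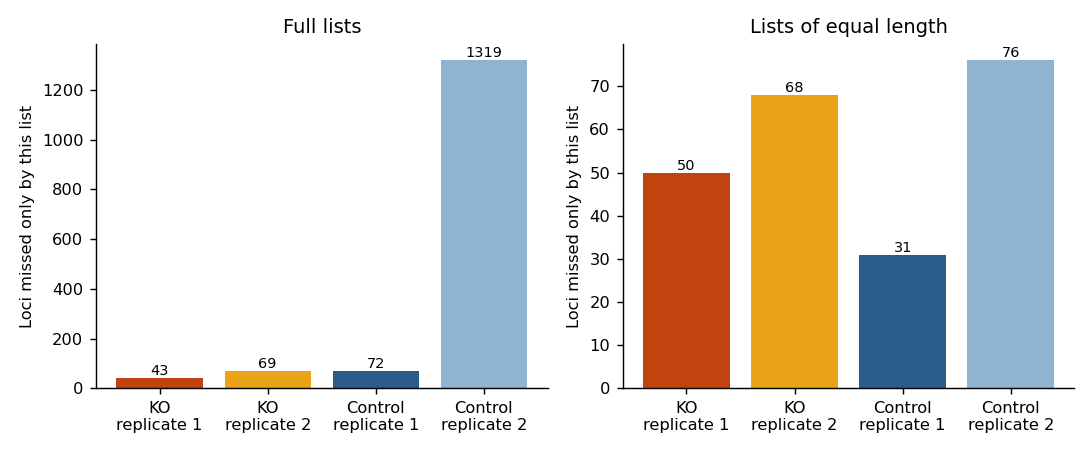
Loci called in 3 lists and missed by the fourth, with 1 bar per library, in the full lists (left) and after reducing each list to its 891 regions of highest score (right); the vertical axes count loci and differ in scale. Control replicate 2 missed 1319 loci in the full lists, and 76 at equal length beside 68 for KO replicate 2.

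The caller's score, deposited by the authors, was used to place each region within its own list, as the percentage of the list's autosomal regions at or below its score. Its scale is not stated, so raw scores are printed as each list gives them and are not compared between lists. At these loci the score was 50.1 to 298 in KO replicate 1 with a median of 110, 50 to 220 in KO replicate 2 with a median of 83.9, and 50.02 to 267 in control replicate 1 with a median of 93.9. The median percentile was 75.6 in KO replicate 1 (quartiles 58.6 and 88.5), 65.4 in KO replicate 2 (44.2 and 81.6) and 64.1 in control replicate 1 (43.1 and 81.6). In each of the 3 lists, fewer than 50% of these loci lay below the list's 50th percentile (17.2%, 31.0% and 31.8% for the same libraries). All 3 lists placed 582 loci (44.1%) above the 50th percentile, 25 (1.90%) above the 90th and 42 (3.18%) below the 50th. At the 485 loci of all 4 lists these shares were 67.4%, 10.3% and 1.24%.

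The 485 loci present in all 4 lists lay higher still, with median percentiles of 83.0 in KO replicate 1, 81.1 in KO replicate 2 and 81.4 in control replicate 1. Loci of both replicate 1 lists only (969) had medians of 60.5 in KO replicate 1 and 51.8 in control replicate 1. Loci of both KO lists only (440) had medians of 51.9 in KO replicate 1 and 58.8 in KO replicate 2. On the percentile scale of each list, the loci missed by control replicate 2 thus stood between those found everywhere and those found in 2 lists.

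Each list was also divided into 5 bins of equal size by score, from bin 1 (lowest) to bin 5. The loci missed by control replicate 2 took 4.98%, 7.69%, 17.7%, 35.5% and 46.1% of the intervals in bins 1 to 5 of KO replicate 1. In KO replicate 2 the shares were 13.3%, 20.2%, 34.0%, 43.4% and 41.3%. In control replicate 1 they were 11.7%, 24.6%, 36.3%, 45.4% and 45.5%. The loci of all 4 lists, a smaller class (485 against 1319), took 22.9% of bin 5 in KO replicate 1, 29.0% in KO replicate 2 and 31.7% in control replicate 1. In bin 4 they took 10.4%, 14.7% and 13.4%, so their share rose more from bin 4 to bin 5. Intervals found in no other list made up 80.2%, 76.7% and 60.7% of bin 1 in KO replicate 1, KO replicate 2 and control replicate 1.

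**Figure D2:**
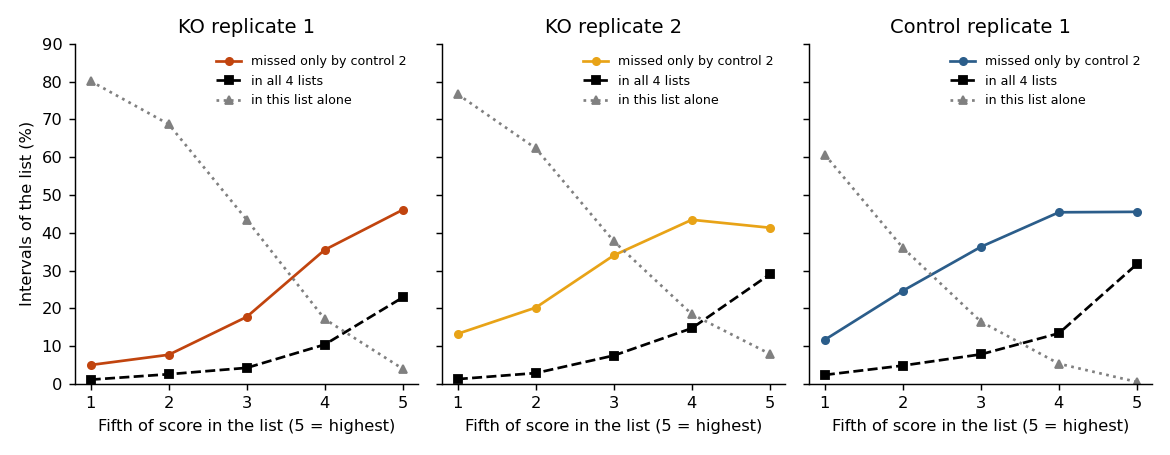
Share of each list's intervals (vertical axis, %) that belong to loci missed only by control replicate 2 (solid), to loci of all 4 lists (dashed) or to no other list (dotted), over 5 bins of score within the list (horizontal axis, 5 = highest). The solid line reaches 46.1% in KO replicate 1, 41.3% in KO replicate 2 and 45.5% in control replicate 1 in the highest bin.

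Conversely, control replicate 2 held a larger share of the loci with high scores in the other lists than of those with low scores. Of the 1804 loci common to KO replicate 1, KO replicate 2 and control replicate 1, those in the lowest of 5 bins by score were also in control replicate 2 in 20.6%, 11.6% and 16.9% of cases by the scores of KO replicate 1, KO replicate 2 and control replicate 1. In the highest bin the shares were 39.9%, 47.6% and 46.3%. So in the highest bin of any of the 3 lists, more than 50% of the loci were missed by control replicate 2. By width the shares ran from 20.1% (bin 2) to 35.2% over the bins of KO replicate 1, from 16.3% to 38.5% over those of KO replicate 2, and from 21.4% to 32.5% over those of control replicate 1, where the highest value fell in bin 4.

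Marked widths at these loci set KO replicate 2 apart from KO replicate 1 and control replicate 1. The median width was 2929 bp in KO replicate 1 (quartiles 2147 and 3947 bp, range 363 to 7776 bp), 1518 bp in KO replicate 2 (1111 and 2137 bp, range 381 to 5686 bp) and 2888 bp in control replicate 1 (2099 and 3955 bp, range 382 to 7398 bp). KO replicate 1 and control replicate 1 were close, and the upper quartile of KO replicate 2 lay near the lower quartile of both. The median log2 width ratio over control replicate 1 was 0.04 for KO replicate 1 and -0.84 for KO replicate 2, with a mean of -0.40 ± 0.62 (SD, n = 2 KO libraries). The mean was thus smaller than the spread between KO libraries, and its sign rested on KO replicate 2: without it the value was 0.04, and without KO replicate 1 it was -0.84. Linear ratios were 1.03 for KO replicate 1 and 0.559 for KO replicate 2.

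**Figure D3:**
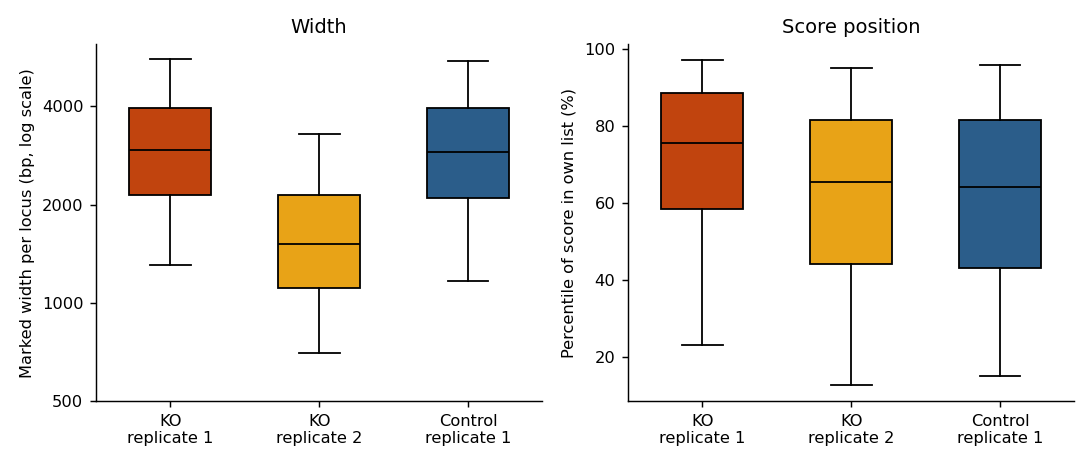
Marked width per locus (left, bp, log scale) and percentile of the score in the library's own list (right, %) at the 1319 loci. Boxes span the quartiles with the median as a line, and whiskers run from the 5th to the 95th percentile over loci; median widths were 2929 bp in KO replicate 1, 1518 bp in KO replicate 2 and 2888 bp in control replicate 1.

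Control replicate 2 has no interval at these loci, so its widths could be read only where all 4 lists held a region. At those 485 loci the median widths were 3355 bp in KO replicate 1 and 1855 bp in KO replicate 2, against 3236 bp in control replicate 1 and 1632 bp in control replicate 2. Within a replicate number, the median log2 width ratio of KO over control was 0.07 for replicate 1 (quartiles -0.23 and 0.31) and 0.11 for replicate 2 (quartiles -0.26 and 0.53). Between numbers it was -0.88 for control replicate 2 over control replicate 1 and -0.77 for KO replicate 2 over KO replicate 1. The narrow intervals at these 485 loci thus went with replicate number 2 in both genotypes. At the 1319 loci, the median log2 width ratio of KO replicate 2 over KO replicate 1, within the KO genotype, was -0.87, and 1245 loci were narrower in KO replicate 2 (94.4%, beside 90.2% of all 2316 loci of both KO lists). Against control replicate 1, genotype and replicate number cannot be told apart for KO replicate 2, since control replicate 2 has no interval at these loci.

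Locus by locus, 697 of the 1319 (52.8%) were wider in KO replicate 1 than in control replicate 1 and 622 were narrower. The share over all 2842 autosomal loci of both lists was 54.9%. Only 117 (8.87%) were wider in KO replicate 2 than in control replicate 1, and the share over all 2016 loci of that pair was 10.6%. A log2 ratio of -1 or lower was reached at 33 loci (2.50%) in KO replicate 1, beside a background of 2.46%, and at 545 loci (41.3%) in KO replicate 2, beside 37.3%. A ratio of 1 or higher was reached at 38 loci (2.88%, background 3.1%) in KO replicate 1 and at 5 loci (0.379%, background 0.694%) in KO replicate 2. These shares lay near those of all loci of each pair of lists. Those backgrounds include the 1319 loci themselves, so nearness was partly built in. At the separate 485 loci of all 4 lists, a log2 ratio of -1 or lower was reached at 1.24% in KO replicate 1 and 29.7% in KO replicate 2.

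Both KO lists were wider than control replicate 1 at 97 loci (7.35%), and both were narrower at 602 (45.6%). The rest were split by library, with 600 (45.5%) wider in KO replicate 1 and narrower in KO replicate 2, and 20 (1.52%) the other way round. Over all 1804 loci of these 3 lists the shares were 7.48% wider in both, 43.8% narrower in both, 46.5% wider in KO replicate 1 alone and 2.22% wider in KO replicate 2 alone. Locus widths correlated across the 1319 loci with a Spearman coefficient of 0.70 between KO replicate 1 and control replicate 1, 0.53 between KO replicate 2 and control replicate 1, and 0.59 between both KO libraries. The points share the library and the caller, and the coefficients are given as descriptions.

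**Figure D4:**
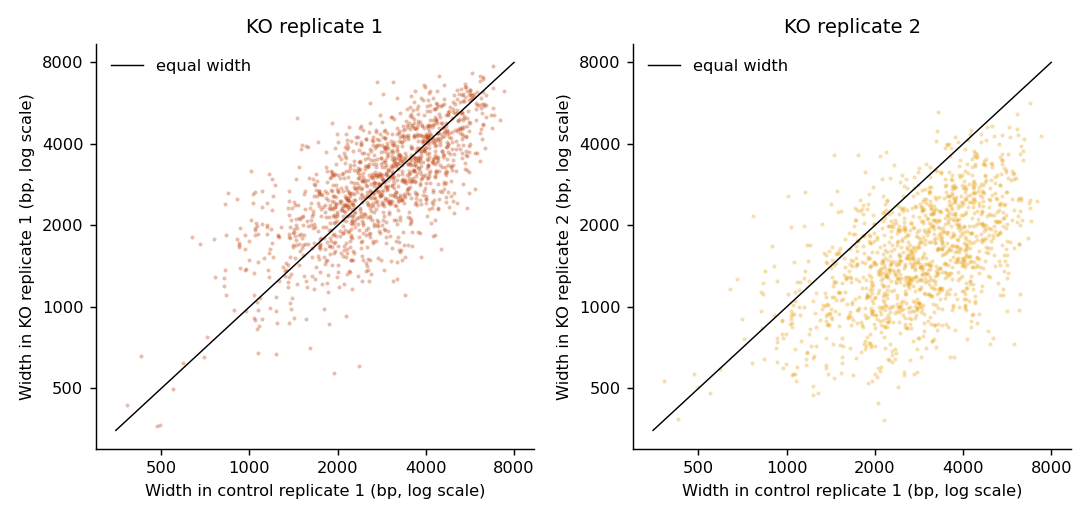
Marked width at each of the 1319 loci in KO replicate 1 (left) and KO replicate 2 (right) against control replicate 1, in bp on log scales; the line marks equal width. In KO replicate 1, 697 loci lie above the line, and in KO replicate 2, 117 do.

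The loci with the largest and the smallest mean width ratio show the extremes of this range, and were picked for it. A locus on chromosome 9 (mm9, 16303764 to 16308761) had widths of 4998 bp in KO replicate 1 and 3638 bp in KO replicate 2, against 1455 bp in control replicate 1. On chromosome 8 (9769311 to 9772993) the widths were 3188 and 2570 bp in KO replicates 1 and 2, against 1013 bp in control replicate 1. The third such locus lay on chromosome 7 (53014229 to 53016052), with 1816 and 1169 bp in KO replicates 1 and 2, against 639 bp in control replicate 1. In all 3 both KO intervals were wider than the control one. The chromosome 9 locus stood at percentiles of 39.1 in KO replicate 1 and 66.2 in KO replicate 2, against 34.7 in control replicate 1.

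At the other end, a locus on chromosome 16 (28443479 to 28448606) had widths of 2454 bp in KO replicate 1 and 730 bp in KO replicate 2, against 4936 bp in control replicate 1. On chromosome 10 (120469895 to 120474417) the widths were 1631 and 943 bp in KO replicates 1 and 2, against 4523 bp in control replicate 1. That locus had a score of 156 in KO replicate 1 (percentile 92.1) and 58.6 in KO replicate 2 (percentile 29.5), against 53.7 in control replicate 1 (percentile 11.6), so its narrower interval in KO replicate 1 stood far higher in its list. On chromosome 7 (143880847 to 143882989) the widths were 925 and 381 bp in KO replicates 1 and 2, against 2143 bp in control replicate 1, and no base was shared by all 3 intervals.

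Intervals of the 3 lists were centred on nearly the same place. Of the 1319 loci, 1285 held exactly 1 interval in each of the 3 lists. At these the centre of the KO replicate 1 interval lay a median of 10.1% of the control replicate 1 width away from the control centre, and that of KO replicate 2 a median of 11.5% away. The centre was within 25% of that width, to either side, at 1116 loci (86.8%) for KO replicate 1 and at 1061 loci (82.6%) for KO replicate 2. It lay outside the control replicate 1 interval at 27 loci (2.10%) for KO replicate 1 and 34 (2.65%) for KO replicate 2. The median signed offset was -0.322% of the control width for KO replicate 1 and 0.198% for KO replicate 2. These shares were not computed over other loci, and they were partly built in. The rule joins overlapping intervals. An interval wholly within the control one has its centre inside it, and less room to shift the wider it is. In bp, the median centre distance over the 1319 loci was 286 for KO replicate 1 and 325 for KO replicate 2. Over every locus of each pair, these loci included, it was 271 and 312 bp. At the separate 485 loci of all 4 lists it was 261 and 276 bp, so close placement was also found outside these loci.

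The difference in width of KO replicate 2 was found at both edges. Counting bases past the control replicate 1 edge as positive, the median over the 1319 loci was -585 bp at the left and -566 bp at the right edge in KO replicate 2. In KO replicate 1 it was 28 bp at the left and 25 bp at the right edge. KO replicate 2 lay wholly within control replicate 1 at 919 loci (69.7%, background 68.2%) and enclosed it at 36 (2.73%, background 4.27%). KO replicate 1 lay within control replicate 1 at 315 loci (23.9%, background 21.9%) and enclosed it at 372 (28.2%, background 28.2%). The backgrounds are the shares over all autosomal loci of each pair of lists. The members' shares lay near them, which was partly built in because the backgrounds include the members. At the separate 485 loci of all 4 lists, KO replicate 2 lay within control replicate 1 at 69.5% and enclosed it at 6.39%. KO replicate 1 enclosed it at 33.4% of those loci. Enclosing was thus less frequent at the 1319 loci than at the separate loci in both KO libraries, a difference that was not tested. Bases called in all 3 lists made up a median of 1429 bp, or 42.7% of the union width of a locus, whose median was 3492 bp. At 11 loci no base was common to all 3 lists, although their intervals were joined in 1 union region.

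**Figure D5:**
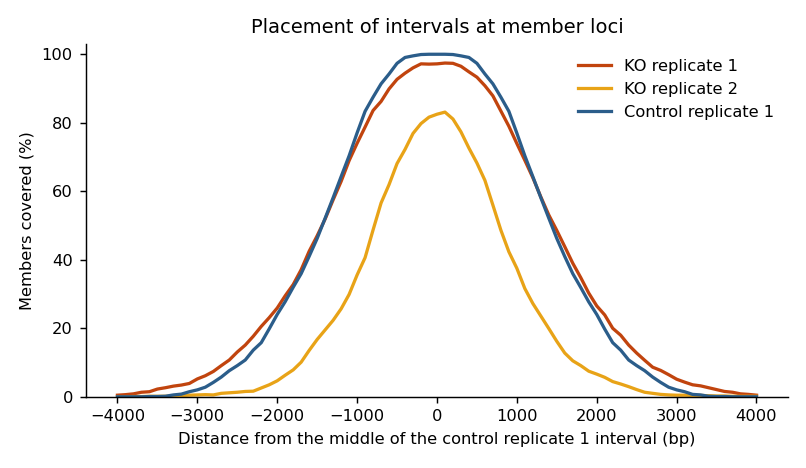
Share of the 1285 loci with 1 interval per list that is covered (vertical axis, %) by distance from the middle of the control replicate 1 interval (horizontal axis, bp). At 1000 bp to the right, 73.9% of loci are covered in KO replicate 1, 37.5% in KO replicate 2 and 77.0% in control replicate 1.

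By score, the median percentile of KO replicate 2 was close to that of control replicate 1. The median difference in percentile against control replicate 1 was 6.73 percentage points for KO replicate 1 (quartiles -5.69 and 23.8) and 0.0776 for KO replicate 2 (quartiles -21.6 and 22.8), with a mean of 3.40 ± 4.70 (SD, n = 2 KO libraries). With lists of equal length, where 76 loci met the rule, the median differences were -1.23 points for KO replicate 1 and -4.41 for KO replicate 2. The mean thus had the opposite sign there. List length and the set of loci changed together in that setting, and the cause was not tested. In the full lists, the percentile was higher in KO replicate 1 than in control replicate 1 at 848 loci (64.3%), beside 62.4% of all loci of that pair, and higher in KO replicate 2 at 664 (50.3%), beside 52.2%. Lists of different length give percentiles of different meaning, so the loci were also ranked among themselves. The median difference was then -1.21 points for KO replicate 1 and 0 for KO replicate 2. Ranks of the same loci have a mean difference of 0 between lists by construction. These values therefore cannot show whether KO scores were higher or lower than control scores. Both KO lists placed a locus higher than control replicate 1 at 501 loci (38.0%, background 36.8%) and lower at 308 (23.4%, background 24.5%).

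Which loci scored high was shared between both replicate 1 lists more than with KO replicate 2. The Spearman coefficient of the percentiles over the 1319 loci was 0.46 between KO replicate 1 and control replicate 1, 0.10 between KO replicate 2 and control replicate 1, and 0.17 between both KO libraries. At the 485 loci of all 4 lists the coefficients were 0.59, 0.28 and 0.26 for the same pairs. Score and width were weakly tied within KO replicate 1 (-0.02) and control replicate 1 (0.04) at the 1319 loci, and more so within KO replicate 2 (0.39). The choice of loci restricts the range of scores, and the coefficients are descriptions of these libraries.

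Loci with the highest mean percentile over the 3 lists that held them were picked for it. By the rule, none had a region in control replicate 2. The first lay on chromosome 6 (29475839 to 29479288), with scores of 245 in KO replicate 1 and 168 in KO replicate 2, against 238 in control replicate 1, and percentiles of 99.3 in KO replicate 1 and 97.3 in KO replicate 2, against 99.0 in control replicate 1. The nearest region of control replicate 2 was 91068 bp away. A locus on chromosome 5 (118475307 to 118480329) had scores of 215 in KO replicate 1 and 187 in KO replicate 2, against 219 in control replicate 1, and lay 2593927 bp from any control replicate 2 region. Its 3 intervals were 4584, 4065 and 4619 bp wide in KO replicate 1, KO replicate 2 and control replicate 1, so here KO replicate 2 was nearly as wide as the others. The remaining loci of the first 5 lay on chromosomes 6 (90685202 to 90687883), 8 (86533653 to 86537789) and 7 (105341034 to 105344510), with mean percentiles of 98.1, 98.1 and 97.6.

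At the other end of the ranking, the 5 loci of lowest mean percentile had percentiles of 1.58 to 26.4 in the 3 lists. The lowest was on chromosome 6 (142649906 to 142651585), with scores of 52.1 in KO replicate 1 and 51.1 in KO replicate 2, against 56.6 in control replicate 1. On chromosome 19 (38170344 to 38173852) the scores were 50.7 and 57.2 in KO replicates 1 and 2, against 50.8 in control replicate 1. The others, on chromosomes 8 (48494475 to 48500821), 10 (94860710 to 94861783) and 1 (91863927 to 91867440), had mean percentiles of 11.9, 13.4 and 14.6. Small scores did not go with small size throughout, since the chromosome 8 locus spanned 6347 bp and the chromosome 10 locus 1074 bp.

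The 5 widest loci were none of those with the highest scores. The widest spanned 7776 bp on chromosome 11 (97392761 to 97400536) and was called over its whole length in KO replicate 1 with a score of 51.4, near the lowest of that list. Its width was 7776 bp in KO replicate 1 and 5686 bp in KO replicate 2, against 6781 bp in control replicate 1, and the scores in KO replicate 2 and control replicate 1 were 77.0 and 84.7. The next, of 7636 bp on chromosome 5 (108793273 to 108800908), was called as 2 intervals in KO replicate 2, together 2482 bp wide, and as 1 interval of 7084 bp in KO replicate 1 and of 6289 bp in control replicate 1. A locus of 7449 bp on chromosome 7 (5002380 to 5009828) had no base common to all 3 lists. Those on chromosome 6 (72180877 to 72188319 and 14846463 to 14853888) spanned 7443 and 7426 bp, with KO replicate 2 widths of 2312 and 1118 bp. Mean percentiles of the 5 widest loci were 29.8 to 49.6.

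Few loci lay close to a region of control replicate 2. The median gap from the 1319 loci to the nearest control replicate 2 region was 629943 bp, and 0.0758% of them lay within 1 kb and 1.90% within 10 kb of one. For loci of both replicate 1 lists only, the median gap was 610190 bp with 1.65% within 10 kb, and for loci of both KO lists only it was 987026 bp with 1.14%. The 3 nearest were on chromosome 9 (3022863 to 3023769) at 443 bp, chromosome 5 (30436628 to 30442812) at 2713 bp and chromosome 19 (6998499 to 7004136) at 2936 bp. The chromosome 9 locus had scores of 127 in KO replicate 1 and 65.6 in KO replicate 2, against 136 in control replicate 1. Near misses, where a region of control replicate 2 ended just short of the locus, were thus few.

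On the other side of the boundary stand the loci of all 4 lists that shared the fewest bases with control replicate 2. One on chromosome 12 (33829942 to 33832567) shared 338 bp, with scores of 182 in KO replicate 1 and 69.0 in KO replicate 2, against 133 in control replicate 1 and 84.4 in control replicate 2. Another on chromosome 6 (3151325 to 3151837) shared 389 bp, with scores of 246 and 307 in KO replicates 1 and 2, against 149 in control replicate 1 and 358 in control replicate 2. The last, on chromosome 4 (70038960 to 70039714), shared 435 bp, with scores of 90.4 and 603 in KO replicates 1 and 2, against 304 in control replicate 1 and 743 in control replicate 2. The chromosome 6 and 4 loci were short as a whole, at 513 and 755 bp, and the chromosome 12 locus spanned 2626 bp.

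The loci were spread over all 19 autosomes, from 37 on chromosome 16 to 118 on chromosome 2. As a share of each chromosome's union regions they ranged from 11.9% on chromosome 15 to 18.3% on chromosome 19, around the 14.5% of all autosomes. Of the loci that KO replicate 1, KO replicate 2 and control replicate 1 had in common, control replicate 2 missed between 65.0% on chromosome 4 and 80.7% on chromosome 19. Over all autosomes, missing most of them was fixed by list length. The 891 autosomal regions of control replicate 2 could hold at most 891 of the 1804 loci. Nearest neighbours among the 1319 loci lay a median of 378884 bp apart, with 2.12% within 10 kb and 18.5% within 100 kb of another. For loci of all 4 lists the median was 806453 bp, with 3.09% within 10 kb and 16.7% within 100 kb. The number of loci in a class sets this distance in part, so the classes were not compared further.

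A window of 100 kb starting at a locus held no second one in 1203 cases, 2 loci in 111 and 3 in 5. A group of 3 on chromosome 2 (151456581 to 151530987) covered 9692 bp in KO replicate 1 and 5187 bp in KO replicate 2, against 9788 bp in control replicate 1. Its members were uneven in score, since the middle locus had 51.1 in KO replicate 1 and 88.2 in KO replicate 2, against 51.4 in control replicate 1, and the first had 188 in KO replicate 1 and 76 in KO replicate 2, against 149 in control replicate 1. A group of 3 on chromosome 7 (150628160 to 150689422) covered 10201 bp in KO replicate 1 and 5540 bp in KO replicate 2, against 9962 bp in control replicate 1. No region of control replicate 2 lay inside either group. Summed over each group, KO replicate 1 and control replicate 1 were close together and KO replicate 2 was narrower. This did not hold at every locus, since the middle one on chromosome 2 was 1242 bp wide in KO replicate 1 and 1107 bp in KO replicate 2, against 3088 bp in control replicate 1.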

How the data were processed

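H3K27me3 regions were called by MACS in each library separately, per the file headers. Bowtie, TopHat and the builds mm9 and dm3 are named in the submitters' processing notes, and mm9 was taken as the build of the mouse regions. Tool versions, the caller's threshold and the library it used as control were not given in the sources used here. The score of each region was deposited by the authors, its scale is not stated, and it was used only to rank regions within a list; libraries were compared by these percentiles. The 4 single-cell count tables were not used here, because no annotation of mm9 was at hand to tie regions to genes; for the same reason no gene names or sequences are given.

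Regions were merged and compared with Python 3.11.15, numpy 2.4.6 and scipy 1.17.1. A library's width at a locus is the sum of its intervals there, and its score the highest of them. The code was tested on simulated lists. Regions named in the text were taken by rule (widest, highest and lowest mean percentile, extreme width ratios, nearest to control replicate 2, least shared with it, densest groups), with chromosome 18 counted but not named. The loci, the rules and the comparisons were chosen with earlier results of these data known. Ratios are KO over control. Alternatives were wider merging, larger overlap, minimum width, stricter or equal-length lists, other summaries and each replicate left out.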

Additional observations from a re-analysis of the deposited data

How the results depend on the processing

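Left-out KO replicates were set aside for the width ratio and the difference in percentile. Of the 27 other alternatives, 23 stayed within 1.5 times the number of loci or within 1 SD of the KO libraries. That SD (0.62 for the ratio, 4.70 points for the difference) was larger than the means themselves (-0.40 and 3.40). Staying within it can therefore include a change of sign, and the count is no measure of stability. The number was 76 with lists of equal length, 690 with the upper part of each list by score, and between 1481 and 2287 without a replicate (2287 without KO replicate 2); asking fewer lists to hold a locus, or shortening lists, changes it by construction. Without a KO replicate, the log2 width ratio was -0.84 to 0.04, changing sign without KO replicate 2, and the difference in percentile 0.0776 to 6.73 points, near 0 without KO replicate 1. At equal list lengths that difference was -2.82 points, with the sign changed; the cause was not tested. Ranked among the loci alone the difference was -0.61, within 1 SD but also with the sign changed. Such ranks have the same mean in every list by construction, so that value could not show a shift between lists. No paired analysis was possible because control replicate 2 has no region at these loci, so KO and control share 1 replicate number there. Read depth, which limits every list, is unknown here.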

Other observations

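On chromosome X, left out of the comparisons, 15 of 279 union regions were in both KO lists and control replicate 1 and not in control replicate 2. No region of chromosomes Y or M met the same rule, of 11 and 4 union regions.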
